A study of Mus musculus with 2 samples.

Results

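The lysosomal genes described here are 33 genes for acid hydrolases, their activators, lysosomal membrane proteins and proton pump subunits, taken by symbol from the 28692 genes listed in the count matrices. All 33 were found in both matrices. They comprise 6 cysteine cathepsins (Ctsb, Ctsc, Ctsh, Ctsl, Ctss and Ctsz), 4 other proteases (Lgmn, Ctsa, Ctsd and Tpp1), 6 glycosidases (Hexa, Gaa, Glb1, Gusb, Man2b1 and Neu1), 8 genes of lipid degradation and cholesterol export (Lipa, Asah1, Ppt1, Gm2a, Psap, Grn, Npc1 and Npc2), the phosphatase Acp5, 6 membrane proteins (Lamp1, Lamp2, Cd63, Cd68, Scarb2 and Laptm5) and 2 proton pump subunits (Atp6v0d2 and Atp6v1a).

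The study compared tumors that resist immune checkpoint therapy with tumors that respond to it. Tumor cells were placed in the mammary fat pad of female BALB/c mice, aged 8 to 10 weeks, and the mice received 100 µg of anti-PD1 antibody per injection for 2 weeks. The resistant tumors grew from 4T1p, the parental 4T1 line of a triple-negative mammary carcinoma, and the responding tumors from 4T1m, a polyclonal population derived from 4T1 by mutagenesis with MNNG. From the tumors of each type, GR-1+ cells (cells bearing Ly6C or Ly6G, the surface proteins of monocytes and neutrophils) were isolated with magnetic beads, and 1 library per condition was made with 10x Genomics 3′ chemistry. Both groups carried the same antibody treatment, and whether cells of several animals were pooled is not stated in the sources used here.

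Lysosomes are acidic organelles in which hydrolases break down proteins, glycans and lipids taken up from outside the cell or delivered by autophagy. The V-type proton pump in their membrane keeps the interior acidic, and heavily glycosylated membrane proteins such as LAMP1 and LAMP2 line it. Macrophages are rich in lysosomes because they degrade dead cells and process antigens, whereas neutrophils keep most of their own hydrolases in granules that are filled during maturation in the bone marrow.

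The library labelled 4T1p held 9021132 UMIs in 1641 barcodes and the library labelled 4T1m 14840190 UMIs in 2749 barcodes, with medians of 2066 and 2763 UMIs per barcode. Each median is the one that the study lists for the other condition, so the libraries are named here as the files name them, and the direction of each difference between them depends on that naming. The libraries shared 0 barcodes. Filters on detected genes, UMIs and mitochondrial share kept 1128 and 2092 cells, of which 518 and 1575 had a UMI of Ptprc, the pan-leukocyte gene. Clustering without the member genes gave 5 monocytic-like clusters (681 cells of 4T1p and 725 of 4T1m), 4 granulocytic-like clusters (251 and 1022 cells), 1 lymphoid-like cluster of 65 cells and 1 cluster of 476 cells that stayed unnamed because of its low UMI counts. The 10 monocytic markers summed to 32577 CPM (summed UMIs of a gene per 1e6 UMIs of the group) in monocytic-like cells of 4T1p and 18000 CPM in those of 4T1m, against 880.6 and 742.3 CPM in granulocytic-like cells. The 8 granulocytic markers summed to 163616 and 164737 CPM in granulocytic-like cells and to 852.6 and 1148 CPM in monocytic-like cells, and none of these 18 markers was at 0 in any of the 4 groups. Markers of B cells, T cells, tumor epithelium, fibroblasts, endothelium, dendritic cells, basophils and mast cells, and natural killer cells summed to between 0 and 36.7 CPM per list in the same groups, with the B cell gene Ms4a1 and the natural killer genes Ncr1 and Prf1 at 0 in all 4. The erythroid pair Hba-a1 and Hbb-bs reached 1422 CPM in monocytic-like cells of 4T1m and 9.1 CPM in those of 4T1p. The study names C1q and MHC class II genes for the monocytic cells enriched in 4T1m tumors. Here C1qa and H2-Ab1 measured 4842 and 4486 CPM in all monocytic-like cells of the library labelled 4T1p. In those of the library labelled 4T1m they measured 2487 and 2137 CPM. Whether the labels of the files are exchanged was not tested.

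Genes of the lysosome are known targets of TFEB and TFE3, transcription factors that bind the E-box CACGTG and its longer form TCACGTGA, both of which read the same on either strand, and every match of the longer form is also a match of the shorter one. RefSeq promoter windows (250 bases before to 50 after a gene start, GRCm38.p6) were found for 28 of the 33 members, with 33 windows in all. CACGTG was present in 8 of these windows (24.2%), compared with 7.15% of all 32851 windows. TCACGTGA was present in 3 (9.09%), compared with 0.974% of all windows. The windows with the shorter form belong to Ctsa, Ctsd, Lamp1, Glb1, Gaa, Lgmn, Ctsl and Atp6v1a, and the Lamp1 window holds it 4 times between 61 and 15 bases before the start. The 100 bases around the longer form are printed for the 3 members that carry it, because they range from one of the clear differences between lineages to the lowest ratio of all members. Capitals mark TCACGTGA, and distances are from the RefSeq gene start. The match starts 13 bases before it in Ctsa (chr2:164833673-164833772, + strand) and 99 bases before it in Ctsd (chr7:142387873-142387972, - strand). In Atp6v1a it starts 132 bases before the RefSeq gene start (chr16:44139338-44139437, - strand). The GENCODE spans of these 3 genes begin further upstream and contain the printed stretches. Ctsa holds the longer form once more just after its start, outside the printed stretch.
Ctsa: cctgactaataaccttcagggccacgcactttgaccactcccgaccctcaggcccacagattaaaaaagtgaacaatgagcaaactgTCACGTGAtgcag
Ctsd: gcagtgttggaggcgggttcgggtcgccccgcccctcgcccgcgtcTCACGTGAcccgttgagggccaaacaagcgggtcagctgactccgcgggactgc
Atp6v1a: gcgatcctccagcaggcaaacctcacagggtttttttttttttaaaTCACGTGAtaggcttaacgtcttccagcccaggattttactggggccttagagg
A match describes these letters only, and binding was not measured.

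The first comparison asked how the lysosomal genes differ between the lineages of GR-1+ cells. The 33 members together made up 2.30% of the UMIs of monocytic-like cells and 0.602% of those of granulocytic-like cells. In the library labelled 4T1p the shares were 2.55% and 0.649%, and in the library labelled 4T1m they were 2.15% and 0.590%, so the lineages differed in the same direction in both. The log2 ratio of the summed level was 1.94 (95% interval 1.92 to 1.96). Throughout, intervals are exact Poisson or binomial ones that cover counting error only, and with 1 library per condition no difference was tested. Of the 33 members, 25 had a log2 ratio of at least 1 in favor of monocytic-like cells, 0 had one of at most -1 and 8 lay between. Over all 6103 genes with at least 200 UMIs in the compared cells, 49.2% were higher by that measure and 11% lower. The median log2 ratio was 1.98 for the members and 0.96 for all genes. Measured from the median of all genes, 17 members lay at least 1 above it and 4 at least 1 below it (29.2% and 27.7% of all genes), and Ctsd, Npc1 and Atp6v0d2 passed from above 0 to below it. The minimum of 200 UMIs counts both lineages together, and monocytic-like cells held 10998598 UMIs against 3996443 in granulocytic-like cells. After thinning every cell to 1000 UMIs the median of all genes was 0.12, so the background of 0.96 depends on this setting. Within the library labelled 4T1p, 23 of 31 members were higher and 0 lower (45.5% and 13.6% of all genes). Within the library labelled 4T1m, the counts were again 23 and 0 of 31 (46.9% and 11.4% of all genes).

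**Figure D1:**
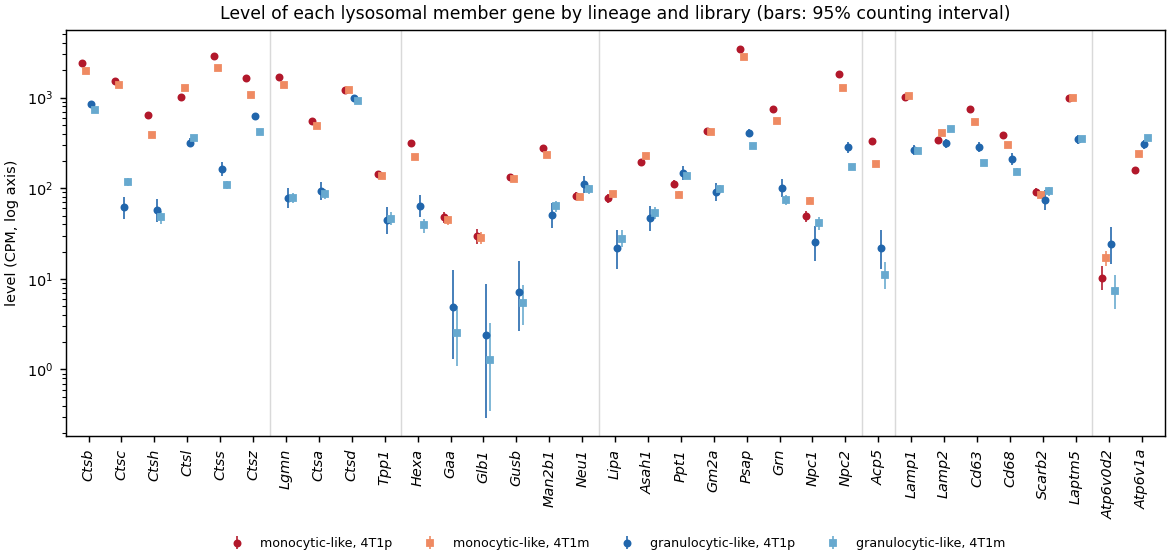
Level of each member in CPM (log axis) in monocytic-like (red) and granulocytic-like (blue) cells of the libraries labelled 4T1p (circles) and 4T1m (squares), with 95% counting intervals as bars and vertical lines between roles. The red points lie above the blue ones for most hydrolases, while Neu1, Ppt1 and Atp6v1a have the blue points higher.

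The cysteine cathepsins, the main thiol proteases of the lysosome, were higher in monocytic-like cells in 6 of 6 cases and summed to 10104 and 8219 CPM there, in 4T1p and 4T1m, against 2070 and 1782 CPM in granulocytic-like cells. Ctss (ENSMUSG00000038642, chr3:95526786-95556403), the protease that trims the invariant chain of MHC class II in antigen-presenting cells, measured 2870 CPM in 4T1p and 2147 CPM in 4T1m monocytic-like cells, compared with 163.1 and 108.9 CPM in granulocytic-like cells. Its log2 ratio was 4.34 (4.21 to 4.47), the highest of the cathepsins. Ctsc, which activates serine proteases of granules, followed at 3.77 (3.63 to 3.91), with 1535 and 1390 CPM against 61.6 and 118 CPM. Ctsh, an aminopeptidase, had a ratio of 3.29 (3.09 to 3.50). The ubiquitous Ctsb, Ctsl and Ctsz had smaller ratios between 1.48 and 1.73. Among them Ctsl, which cleaves elastin and other matrix proteins, had 1009 and 1261 CPM in monocytic-like and 318.9 and 358.5 CPM in granulocytic-like cells. Ctsb still reached 848 and 730.3 CPM in granulocytic-like cells, and it was the second most abundant member there.

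The other proteases were split. Lgmn (ENSMUSG00000021190, chr12:102394084-102439813), the asparagine-specific endopeptidase that matures several cathepsins, measured 1686 and 1392 CPM in monocytic-like cells of 4T1p and 4T1m and 78.5 and 78 CPM in granulocytic-like cells, a log2 ratio of 4.27 (4.11 to 4.44). Ctsa, the carboxypeptidase that protects GLB1 and NEU1 in a common complex, had a ratio of 2.53 (2.37 to 2.69). Tpp1, a tripeptidyl peptidase, had 1.60 (1.38 to 1.83). Ctsd (ENSMUSG00000007891, chr7:142375911-142388038), the main aspartic protease, stood apart with 1213 and 1200 CPM in monocytic-like cells and 992.9 and 925 CPM in granulocytic-like cells. Its log2 ratio was 0.36 (0.31 to 0.41), and it was the most abundant member of granulocytic-like cells, where it held 15.6% of the member UMIs.

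The glycosidases, which take sugars off glycans, glycolipids and glycogen, were higher in monocytic-like cells in 5 of 6 cases. Gusb, the beta-glucuronidase, had the highest ratio of all 33 members, 4.49 (3.90 to 5.15), from 132.6 and 126.7 CPM in monocytic-like and 7.2 and 5.4 CPM in granulocytic-like cells. Glb1, the acid beta-galactosidase, and Gaa, the acid alpha-glucosidase, had ratios of 4.26 (3.12 to 5.72) and 3.93 (3.11 to 4.89), but both stayed under 5 CPM in granulocytic-like cells and their intervals are wide. Hexa and Man2b1 had ratios of 2.55 and 2.05. Neu1, the lysosomal sialidase, went the other way with 82.1 and 80.2 CPM in monocytic-like against 111.1 and 97.5 CPM in granulocytic-like cells, a ratio of -0.31 (-0.48 to -0.14).

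Of the genes of lipid degradation and cholesterol export, 6 of 8 were higher in monocytic-like cells. Psap (ENSMUSG00000004207, chr10:60277627-60302597), the precursor of the saposins that present lipids to hydrolases, was the most abundant member of monocytic-like cells with 3407 CPM in 4T1p and 2783 CPM in 4T1m, against 408.3 and 290 CPM in granulocytic-like cells. Its log2 ratio was 3.27 (3.18 to 3.35). Grn, the precursor of the granulins, had a ratio of 2.98 (2.82 to 3.15), and Npc2, the soluble carrier of cholesterol, 2.93 (2.83 to 3.04). Npc1, the membrane protein that receives cholesterol from it, differed far less, at 0.75 (0.49 to 1.01), and was at -0.21 as a mean over cells. The lipid hydrolases Asah1 and Lipa and the activator Gm2a had ratios of 2.04, 1.64 and 2.12. Ppt1, the thioesterase that removes fatty acids from proteins, was lower in monocytic-like cells at -0.55 (-0.70 to -0.40), with 112.3 and 85.2 CPM against 148.6 and 137.9 CPM. Acp5, the tartrate-resistant acid phosphatase, belonged to the genes with large ratios at 4.19 (3.79 to 4.61).

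The 6 membrane proteins had a median ratio of 1.28, and 4 of them were past 1. Lamp1, a main glycoprotein of the lysosomal membrane, measured 1007 and 1050 CPM in monocytic-like cells and 265.7 and 260.4 CPM in granulocytic-like cells, a log2 ratio of 1.98 (1.89 to 2.08). The tetraspanin Cd63, the hematopoietic Laptm5 and the macrophage marker Cd68 had ratios of 1.56, 1.52 and 1.03. Of these, Cd68 was under 1 within each library, at 0.90 in 4T1p and 0.98 in 4T1m. Lamp2 did not follow its relative Lamp1, with 338 and 403.8 CPM in monocytic-like and 311.6 and 453.5 CPM in granulocytic-like cells, a ratio of -0.17 (-0.25 to -0.08) that was 0.12 (-0.08 to 0.31) within 4T1p and -0.17 (-0.26 to -0.07) within 4T1m. Scarb2, the receptor that carries glucocerebrosidase to lysosomes, was at -0.02 (-0.20 to 0.16), with 0.28 within 4T1p and -0.12 within 4T1m.

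Of the 2 proton pump subunits, 0 were higher in monocytic-like cells by a log2 ratio of at least 1 with both libraries pooled. Atp6v1a (ENSMUSG00000052459, chr16:44085402-44139705), the catalytic subunit of the pump, measured 159.3 CPM in 4T1p and 238.7 CPM in 4T1m monocytic-like cells and 304.4 and 359.5 CPM in granulocytic-like cells, a ratio of -0.74 (-0.84 to -0.65), the lowest of all members. Atp6v0d2, a subunit known from osteoclasts and macrophages, was scarce everywhere. Its pooled ratio was 0.42, with an interval that did not leave out 0. Within the libraries the ratio pointed in opposite directions, with -1.23 (-2.02 to -0.39) in 4T1p and 1.22 (0.57 to 1.94) in 4T1m.

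**Figure D2:**
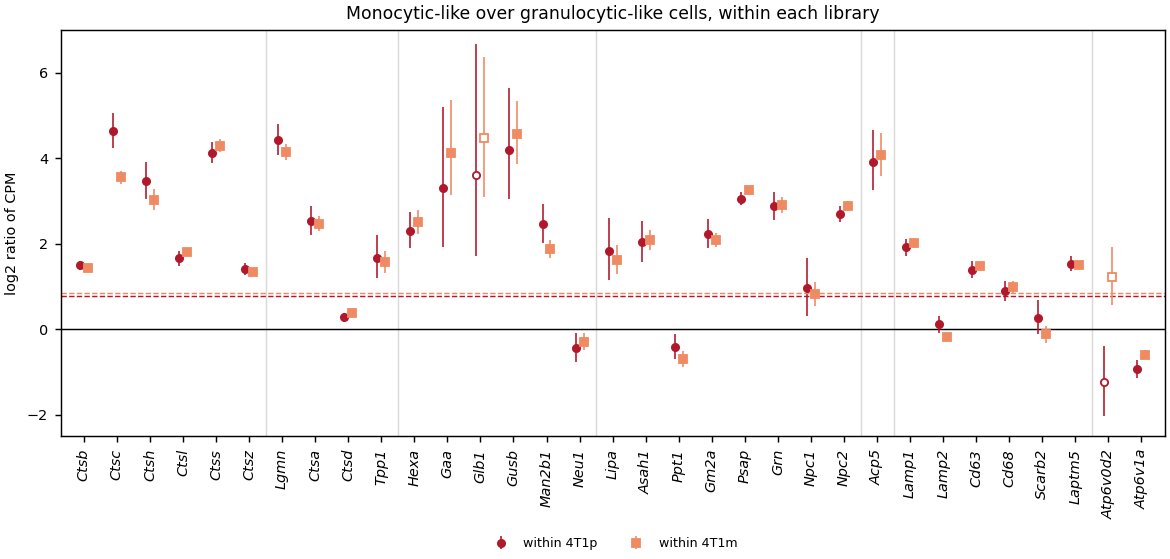
Log2 ratio of CPM of monocytic-like over granulocytic-like cells for each member within the libraries labelled 4T1p (circles) and 4T1m (squares), with exact binomial 95% intervals, open symbols for members with fewer than 200 UMIs in the compared cells and dashed lines at the median of all genes. In each library 23 of 31 members lie past a ratio of 1, and Atp6v0d2 is the member whose intervals lie on opposite sides of 0.

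Lists of further lysosomal genes, none of them members, were read the same way, beside the 49.2% of all genes that were higher, the 11% that were lower and their median of 0.96. Of 24 other hydrolases and activators with enough UMIs, 16 were higher in monocytic-like cells by a log2 ratio of at least 1 and 2 were lower, with a median of 2.58. The highest were Cpq at 4.96 (3.72 to 6.59), Scpep1 at 4.69 (3.91 to 5.61) and Pld3 at 4.52 (3.71 to 5.48). They rested on only 5, 13 and 12 UMIs in granulocytic-like cells. The lower pair was Ctse at -1.73 and Gla, the alpha-galactosidase, at -1.55. Of 15 further proton pump genes 2 were higher, Tcirg1 at 2.54 and Atp6v0a2 at 2.14, both membrane a subunits, and 0 were lower, with a median of -0.32. Atp6v1b2, which forms the catalytic ring together with ATP6V1A, lay at -0.99 (-1.10 to -0.88). Of 10 other membrane proteins and transporters 4 were higher and 0 lower, with a median of 0.52, and of 8 genes of sorting to the lysosome 4 were higher and 1 lower, with a median of 0.92, which does not stand apart from all genes. The lower one was Igf2r, a mannose 6-phosphate receptor, at -2.91 (-3.28 to -2.56), while the other receptor of this kind, M6pr, was at 0.14 (0.03 to 0.25). Among the 4 transcription factors, Tfec was at 4.16 (3.23 to 5.30), with 9 UMIs in granulocytic-like cells. Mitf was at 0.93 (0.59 to 1.27), Tfeb at 0.00 (-0.42 to 0.43) and Tfe3 at -0.09 (-0.38 to 0.21). Of 5 protease inhibitors 2 were higher and 0 lower, with a median of 0.56. Cst3, the secreted cystatin, was at 2.03 and Serpinb6a at 1.91, and Slpi and Cstb were at -0.76 and -0.72. Within the libraries labelled 4T1p and 4T1m, Slpi was at -2.33 and -0.25, and Mitf at -0.09 and 1.35. Mitf had under 200 UMIs in the compared cells of 4T1p.

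Free RNA in droplets can place UMIs of macrophage genes in granulocytic-like cells, so the members were set beside C1qa, C1qb, C1qc and Apoe. In granulocytic-like cells these 4 genes had at most 4.86% of their monocytic-like level in 4T1p and at most 5.40% in 4T1m, taking the upper bounds of their intervals. The lower bound of the same percentage was above that limit for 26 of 33 members in 4T1p and 27 of 33 in 4T1m. Of the macrophage genes measured in this way, H2-Ab1 lay under the limit and Csf1r above it, with 7.05% (4.81% to 9.99%) in 4T1p and 7.73% (6.40% to 9.27%) in 4T1m. With Csf1r among the reference genes, 25 and 26 members were above the limit. Psap reached 11.98% and 10.42% in 4T1p and 4T1m, and Acp5 6.61% and 5.95% with lower bounds of 3.91% and 4.12%. The members whose lower bound was not above the limit in both libraries were Ctss, Lgmn, Gaa, Glb1, Gusb and Acp5, joined in 4T1p by Ctsc with 4.01% (2.98% to 5.28%). Some of their percentages lay above the limit, such as Gaa with 10.13% (2.73% to 26.33%) in 4T1p. Ctsh in 4T1p and Ctsc in 4T1m were above it only without Csf1r. The granulocytic-like levels with a lower bound not above the limit could not be told apart from free RNA. These are the members with the highest lineage ratios, which follows from the measure, since the percentage is the inverse of the lineage ratio. The lists of further lysosomal genes were not set beside this limit.

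At a matched depth of 1000 UMIs per cell, with shallower cells left out (268 monocytic-like and 105 granulocytic-like), the shares of cells with a UMI gave the following picture, with the share before thinning in brackets. Ctss was detected in 81.5% [91.3%] of monocytic-like and 10.3% [22.9%] of granulocytic-like cells, Psap in 81.5% [88.8%] and 22.3% [46.2%], Ctsc in 68.6% [84.6%] and 7.19% [18.9%], and Lgmn in 64.9% [84.1%] and 7.36% [15.0%]. Of the reference genes for free RNA, C1qa was detected in 71.8% [83.2%] and 8.39% [16.5%], C1qb in 67.2% [81.7%] and 7.36% [14.7%], and C1qc in 64.8% [78.0%] and 4.62% [9.51%]. Apoe, far more abundant than any member, was detected in 90.6% [96.4%] and 22.1% [41.0%]. In granulocytic-like cells of both libraries pooled, Ctsc and Lgmn lay within the range of the C1q genes, while Ctss lay slightly above it and Psap well above it. Within 4T1m, Ctsc at 7.88% and Lgmn at 7.77% lay above C1qa at 7.45%, the highest of the C1q genes there. Whether these UMIs came from free RNA was not tested. Ctsd was detected in 54.3% [76.4%] of monocytic-like and 55.7% [77.8%] of granulocytic-like cells, Lamp2 in 29.3% [63.6%] and 35.1% [63.2%], and Atp6v1a in 14.3% [47.4%] and 28.9% [51.4%]. The median depth before thinning was 4464 UMIs in monocytic-like and 2535 UMIs in granulocytic-like cells. A cell at this depth drew a median of 2.20% of its UMIs from the 33 members in the monocytic-like lineage (quartiles 1.5% and 2.9%) and 0.60% in the granulocytic-like lineage (0.40% and 0.90%). In granulocytic-like cells, 8 members, led by Ctsd, Ctsb, Ctsz and Lamp2, held 65.4% of the member UMIs. In monocytic-like cells Psap, Ctss, Ctsb, Lgmn, Npc2, Ctsc, Ctsz and Ctsd held 63.0%.

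Levels by cluster showed which states of each lineage carried the members. Each cluster is called by its leading genes, and a member's order across clusters is a description because no cluster was tested against the rest. Counts of members that were highest or lowest in a cluster were not made for all genes, so they have no background beside them. Among monocytic-like cells, the Cd163 and Cbr2 cluster (109 cells) had the highest level for 15 of 33 members and the C1qb and Aif1 cluster (421 cells) for 11. The Cx3cr1 and Cxcl9 cluster (369 cells) was highest for 5 and the Mmp12 and Thbs1 cluster (319 cells) for 2. The cluster of proliferating cells led by Top2a and Stmn1 (188 cells) was lowest for 14 members and the Mmp12 and Thbs1 cluster for 12. The median cell had 1164 UMIs in the C1qb and Aif1 cluster and 1496 in the Top2a and Stmn1 cluster. It had 13219 in the Cx3cr1 and Cxcl9 cluster, 11237 in the Mmp12 and Thbs1 cluster and 8448 in the Cd163 and Cbr2 cluster. The part of depth in these orders was not tested. The highest cluster was the same in both libraries for 24 of 33 members, and the rank correlation between the libraries over the 5 clusters had a median of 0.9 over the members.

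The members divided by state. In the Cd163 and Cbr2 cluster Ctsb measured 2973 CPM, Lgmn 2617 CPM, Ctsd 2030 CPM and Lamp1 1598 CPM, compared with 1114, 1217, 578 and 826 CPM in the Top2a and Stmn1 cluster. In the C1qb and Aif1 cluster Ctss measured 3395 CPM, Npc2 2138 CPM, Ctsz 1785 CPM and Cd63 1067 CPM. The same cluster had the lowest Lipa, Npc1 and Atp6v1a. Its Tpp1 was the lowest with both libraries pooled, at 94.2 CPM, but in neither library alone. The lowest Tpp1 was in the Top2a and Stmn1 cluster within 4T1p and in the Mmp12 and Thbs1 cluster within 4T1m. Ctsl had its highest level, 1899 CPM, in the Mmp12 and Thbs1 cluster and 338.9 CPM in the Top2a and Stmn1 cluster, the widest spread of the cathepsins. In the library labelled 4T1p the Mmp12 and Thbs1 cluster had 2204 CPM of Ctsl, and in the library labelled 4T1m 1818 CPM. Psap was highest in the Cx3cr1 and Cxcl9 cluster at 3294 CPM and lowest in the Top2a and Stmn1 cluster at 1913 CPM. Within 4T1p, however, it was highest in the Mmp12 and Thbs1 cluster, with 3936 CPM against 3609 CPM in the Cx3cr1 and Cxcl9 cluster. The 4T1p library held only 20 cells of the Cd163 and Cbr2 cluster, so its values there rest on few cells.

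**Figure D3:**
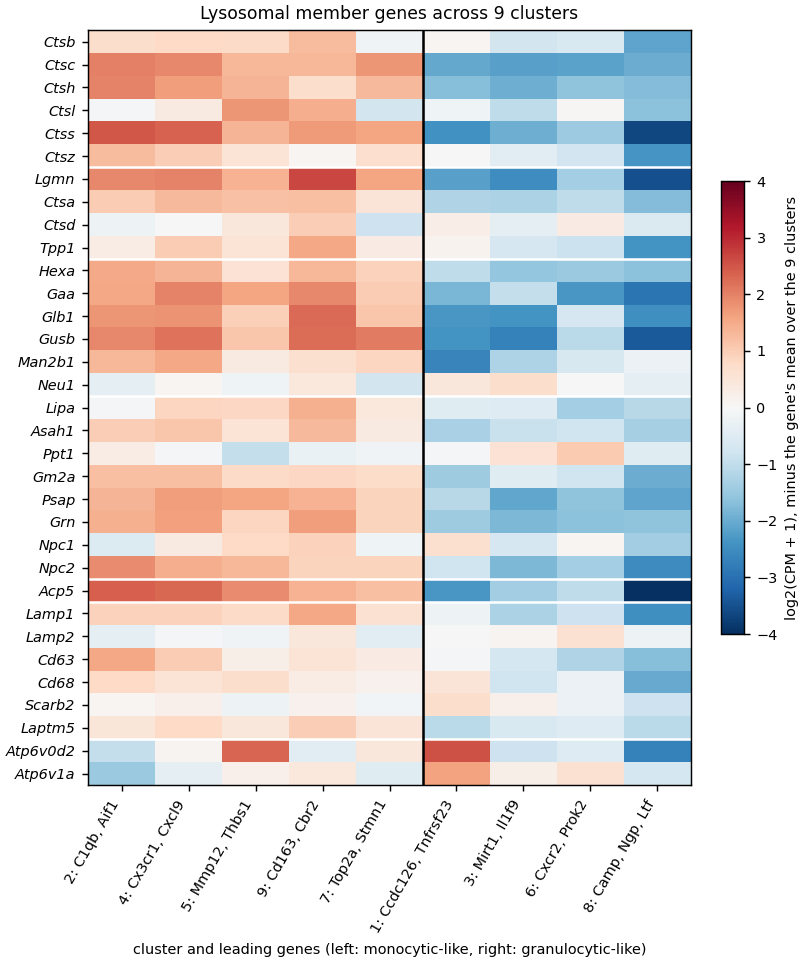
Each row is a member and each column one of 9 clusters, 5 monocytic-like on the left and 4 granulocytic-like on the right, with color giving log2(CPM + 1) of both libraries pooled minus the gene's mean over the 9 clusters. Most rows are red on the left and blue on the right, Atp6v1a has its highest value in the granulocytic-like cluster led by Ccdc126 and Tnfrsf23, and the Camp, Ngp and Ltf column is lowest for 28 members among the granulocytic-like clusters. The last count was not made for all genes.

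Among granulocytic-like cells, the Camp, Ngp and Ltf cluster (180 cells), led by genes of secondary granules of immature neutrophils, was lowest for 28 of 33 members. How many of all genes were lowest there was not counted, so the number cannot be called particular to the members. The Ccdc126 and Tnfrsf23 cluster (423 cells) was highest for 15 and the Cxcr2 and Prok2 cluster (298 cells) for 13. Their median cells had 2063 and 1584 UMIs, against 5488 UMIs in the Camp, Ngp and Ltf cluster. Atp6v1a measured 692.7 CPM in the Ccdc126 and Tnfrsf23 cluster and 137 CPM in the Camp, Ngp and Ltf cluster, and this order held within both libraries (590 and 81 CPM in 4T1p, 719 and 149 CPM in 4T1m). Ctsb went from 282.8 CPM in the Camp, Ngp and Ltf cluster to 1309 CPM in the Ccdc126 and Tnfrsf23 cluster, Ctsz from 144.2 to 741.5 CPM and Cd68 from 54 to 318.6 CPM. Ctsd was high in both the Cxcr2 and Prok2 cluster (1277 CPM) and the Ccdc126 and Tnfrsf23 cluster (1233 CPM) and still measured 679.3 CPM in the Camp, Ngp and Ltf cluster. Man2b1, the lysosomal alpha-mannosidase, had the opposite order, with 100.7 CPM in the Camp, Ngp and Ltf cluster and 18.2 CPM in the Ccdc126 and Tnfrsf23 cluster. Lamp2 was highest in the Cxcr2 and Prok2 cluster at 612.2 CPM and lowest at 345.7 CPM in the Camp, Ngp and Ltf cluster. With both libraries pooled, Ctsc hardly varied over the granulocytic-like clusters, between 98.5 and 113.6 CPM. Within 4T1p it went from 37.9 CPM in the Camp, Ngp and Ltf cluster (8 UMIs) to 113.8 CPM in the Cxcr2 and Prok2 cluster (9 UMIs). Within 4T1m the same clusters had the opposite order, at 129.1 and 99.1 CPM. Ctsl reached 577.3 CPM in the Cxcr2 and Prok2 cluster, but with 164.3 CPM in 4T1p and 643.4 CPM in 4T1m. Atp6v0d2 had 36.4 CPM in the Ccdc126 and Tnfrsf23 cluster, with 80.3 CPM in 4T1p and 25.2 CPM in 4T1m, and 0 UMIs in the Camp, Ngp and Ltf cluster, where a count of 0 allows up to 2.42 CPM. The highest cluster was the same in both libraries for 18 of 33 members, and for 6 members the rank correlation between the libraries over the 4 clusters was not above 0.

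**Figure D4:**
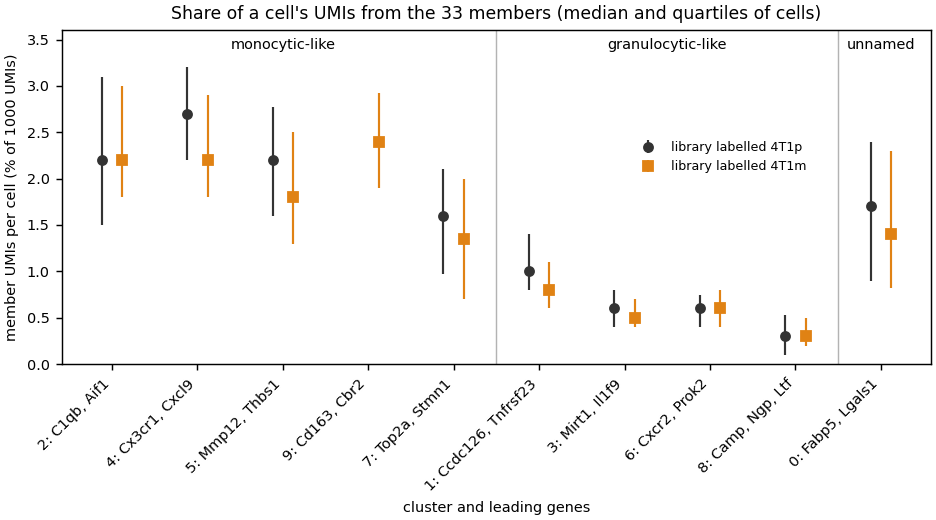
Percent of a cell's UMIs that came from the 33 members after thinning every cell to 1000 UMIs, as median (points) and quartiles (bars) of cells, by cluster for the libraries labelled 4T1p (circles) and 4T1m (squares). Medians lie between 1.35% and 2.70% in the monocytic-like clusters and between 0.30% and 1.00% in the granulocytic-like clusters, and no value is drawn for the Cd163 and Cbr2 cluster of 4T1p, which kept fewer than 20 cells. The unnamed cluster stands on the right with medians of 1.7% and 1.4%.

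The comparison the series was made for set the library labelled 4T1m against the library labelled 4T1p. In monocytic-like cells the member share of UMIs was 2.55% in 4T1p and 2.15% in 4T1m, a log2 ratio of -0.25 (-0.26 to -0.24) for 4T1m over 4T1p. None of the 32 members with at least 200 UMIs reached a log2 ratio of 1 in either direction, and of all 5473 genes 7% were higher and 1.44% lower by that measure. The median was -0.12 for the members and 0.14 for all genes. The counting interval lay below 0 for 16 of 32 members (23.6% of all genes) and above 0 for 6 (42.4% of all genes). Of the 32 members, 26 lay below the median of all genes and 6 above it.

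The 16 members with intervals below 0 were 5 of 6 cysteine cathepsins, 2 of 4 other proteases, 2 of 6 glycosidases, 4 of 8 genes of lipid degradation and cholesterol export, Acp5 and 2 of 6 membrane proteins. Acp5 had the lowest ratio, from 328.9 CPM in 4T1p to 185.8 CPM in 4T1m, -0.82 (-0.94 to -0.71). Ctsh went from 641.6 to 390.7 CPM (-0.72, -0.79 to -0.64) and Ctsz from 1652 to 1055 CPM (-0.65, -0.69 to -0.60). Hexa was at -0.53, Npc2 at -0.52, Cd63 at -0.50, Grn at -0.44 and Ctss at -0.42. The 6 members with intervals above 0 were Atp6v1a at 0.58 (0.45 to 0.72), Npc1 at 0.55 (0.32 to 0.79), Ctsl at 0.32 (0.27 to 0.38), Lamp2 at 0.26, Asah1 at 0.22 and Lamp1 at 0.06. For 5 of the 22 members whose interval left out 0, the direction turned under an alternative. Psap, at -0.29, was at 0.04 as a mean over cells, and Ctsc, at -0.14, was at 0.11 as a mean over clusters. Ctsl was at -0.04 as a mean over clusters, Asah1 at -0.05 with at most 5% mitochondrial UMIs, and Lamp1 between -0.08 and -0.07 under 3 alternatives. Ctsd and Laptm5 were both at -0.01, with intervals of -0.07 to 0.04 and -0.06 to 0.05.

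Several other measures moved with this difference. Different clusters held the monocytic-like cells of each library, since 306 of the 681 cells of 4T1p were in the C1qb and Aif1 cluster and 245 of the 725 cells of 4T1m in the Mmp12 and Thbs1 cluster. The median cell had 2015 UMIs in 4T1p and 8512 in 4T1m, 44.8% and 75.3% of the cells had a Ptprc UMI, and the summed monocytic and erythroid markers differed as given with the libraries. Their part in the result was not tested. Within each of the 5 monocytic-like clusters, the summed member level was again lower in 4T1m, with log2 ratios between -0.29 and -0.06. Ctsh, Ctss, Ctsz, Hexa, Psap, Grn and Npc2 were lower in 4T1m in 5 of 5 clusters, and Npc1 was higher in 5 of 5. Not all of these intervals left out 0, and for Npc1 only that of the Cx3cr1 and Cxcl9 cluster did. The 5 clusters are parts of the same libraries and not replicates of the difference. Counts over clusters are not given for all genes, so they cannot be called particular to the members. Atp6v1a was higher in 4 of 5 clusters. Ctsl was higher in only 2 of 5 clusters, with values between -0.28 and 0.19, and Acp5 was lower in 4 of 5 (-1.49 to 0.25). At 1000 UMIs per cell the median cell drew 2.30% of its UMIs from the members in 4T1p and 2.00% in 4T1m. In the C1qb and Aif1 cluster the lower level in 4T1m was not seen at this depth. There the median was 2.2% in both libraries, and the mean was 2.41% in 4T1p and 2.43% in 4T1m.

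**Figure D5:**
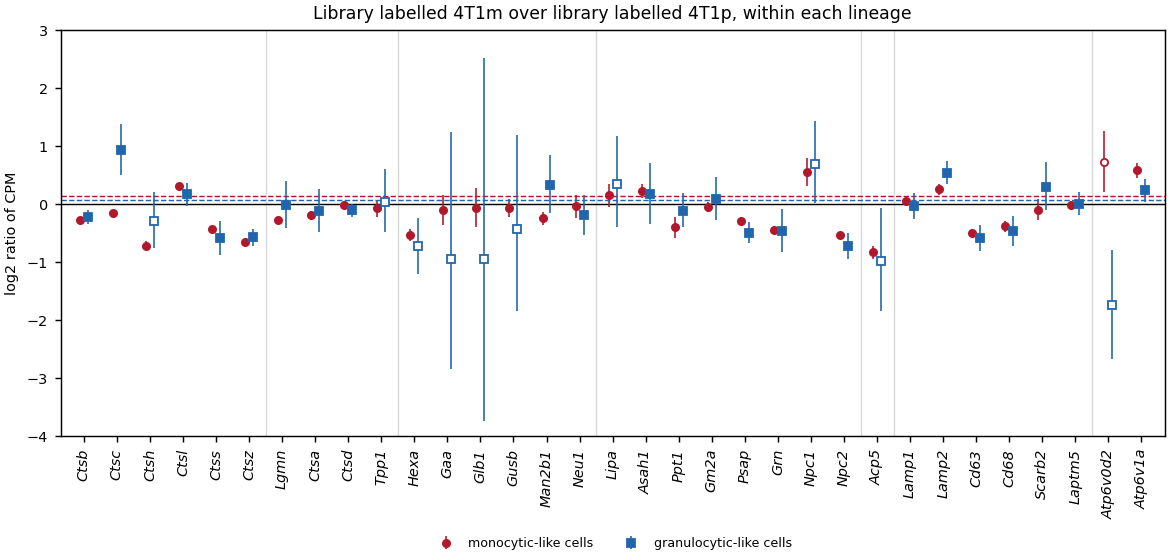
Log2 ratio of CPM of the library labelled 4T1m over the library labelled 4T1p for each member in monocytic-like (red circles) and granulocytic-like (blue squares) cells, with exact binomial 95% intervals, open symbols for members with fewer than 200 UMIs in the compared cells and dashed lines at the median of all genes. Among members drawn with filled symbols all ratios lie between -0.82 and 0.94.

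In granulocytic-like cells the member share was 0.649% in 4T1p and 0.590% in 4T1m, a log2 ratio of -0.14 (-0.18 to -0.09). This ratio was -0.0443 with a Ptprc UMI required in each cell and 0.000751 as a mean over clusters, so it had no direction common to these settings. Enough UMIs were counted for 23 members, and 0 reached a log2 ratio of 1 in either direction (4.97% of all 1991 genes were higher and 2.61% lower). The interval lay below 0 for 8 members and above 0 for 3 (22.4% and 32% of all genes), and the median was -0.10 for the members and 0.08 for all genes. Ctsc had the highest ratio, 0.94 (0.51 to 1.39), from 61.6 CPM in 4T1p to 118 CPM in 4T1m. The ratio was above 0 in 3 of 4 clusters, although the level in 4T1p could not be told apart from free RNA. Lamp2 went from 311.6 to 453.5 CPM (0.54, 0.35 to 0.74) and was higher in 4 of 4 clusters. Npc2 went from 282.7 to 172 CPM (-0.72, -0.94 to -0.49) and was lower in 4 of 4. Cd63, Ctss and Ctsz were at -0.59, -0.58 and -0.57. Cd63 and Ctsz were lower in 3 of 4 clusters and Ctss in 2 of 4. The lower bound of Ctss was not above the limit for free RNA in either library. The monocytic markers in these cells were also lower in 4T1m (742.3 against 880.6 CPM) and the erythroid pair was higher (399.9 against 24.2 CPM), and their part in the result was not tested.

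The summed level in granulocytic-like cells had no common direction over the clusters. The log2 ratio of 4T1m over 4T1p was -0.36 in the Ccdc126 and Tnfrsf23 cluster and -0.18 in the Mirt1 and Il1f9 cluster, but 0.21 in the Cxcr2 and Prok2 cluster and 0.34 in the Camp, Ngp and Ltf cluster. The last of these held 24 and 156 cells of 4T1p and 4T1m, and the Cxcr2 and Prok2 cluster 36 and 262. Of the 23 members measured in both lineages, 13 were below 0 in both, 4 above 0 in both and 6 differed in direction. The same count was not made for all genes, so it cannot be called particular to the members. Whether the lineages differ in this respect was not tested. Npc2 was lower in 4T1m in every cluster of both lineages, 5 of 5 and 4 of 4, and Npc1, which had under 200 UMIs in granulocytic-like cells, was higher in every one of the 9. These clusters come from the same libraries and are not replicates, and counts over clusters are not given for all genes. Not all Npc2 intervals left out 0. For Npc1 only that of the Cx3cr1 and Cxcl9 cluster did (0.10 to 0.82), and the Camp, Ngp and Ltf cluster of 4T1p held 2 Npc1 UMIs.

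Among the other lysosomal genes, the library labelled 4T1m had higher Slpi, the secretory leukocyte protease inhibitor, in monocytic-like cells, with 525.8 CPM against 124.7 CPM, a log2 ratio of 2.08 (1.94 to 2.21). It was the only gene of these lists past a ratio of 1 there, in either direction (7% of all genes were higher and 1.44% lower). In granulocytic-like cells, where Slpi is a known product, it measured 624.9 and 625.7 CPM. Cst3 was lower in 4T1m monocytic-like cells at -0.57 (-0.61 to -0.53), next to Cpq at -0.97. Gnptab, a subunit of the enzyme that tags hydrolases for the lysosome, was at 0.90 (0.53 to 1.27), Mitf at 0.73 (0.43 to 1.04) and M6pr at 0.58 (0.46 to 0.70). The medians in monocytic-like cells were -0.19 for 21 other hydrolases, 0.15 for 9 other membrane proteins, 0.03 for 15 proton pump genes, -0.05 for 7 sorting genes, 0.53 for 3 transcription factors and -0.11 for 5 inhibitors. All genes had a median of 0.14 there. In granulocytic-like cells Atp6v1h of the proton pump was at 1.07 (0.65 to 1.52) and Atp6v1b2 at 0.75 (0.50 to 1.00), while Laptm4a, a relative of Laptm5, had 146.2 CPM in 4T1p and 72.9 CPM in 4T1m, an interval of -1.33 to -0.67 for the log2 ratio. Atp6v1h and Laptm4a were the only genes of the lists past a ratio of 1 there, 1 higher and 1 lower (4.97% and 2.61% of all genes). The medians there were 0.20 for 6 other hydrolases, 0.21 for 6 other membrane proteins, 0.00 for 13 proton pump genes, 0.38 for 2 sorting genes and -0.05 for 4 inhibitors. For all genes the median was 0.08.

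The unnamed cluster of 476 cells, led by Fabp5 and Lgals1, had a member share of 2.01%, close to that of monocytic-like cells, with 2.35% in 4T1p and 1.79% in 4T1m. Its median was 930 UMIs per cell, and 19.1% of its cells had a Ptprc UMI. Its low UMI counts and the lack of lineage markers among its leading genes kept it out of the comparisons. In its cells of 4T1p and 4T1m the monocytic markers summed to 15458 and 12883 CPM. The granulocytic markers summed to 1162 and 1489 CPM there. Tumor epithelial markers summed to 211.3 and 98.7 CPM, and fibroblast markers to 2.5 and 393.2 CPM. Ctsd measured 1495 CPM in this cluster with both libraries pooled, against 1205 CPM in monocytic-like cells. It was above them in 4T1p (2044 against 1213 CPM) and below them in 4T1m (1138 against 1200 CPM). Ctss measured 1528 CPM in the cluster, below the 2428 CPM of monocytic-like cells. In the 65 lymphoid-like cells the members made up 0.367% of UMIs, and Laptm5, a gene of hematopoietic cells in general, was the most abundant member at 882.2 CPM.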

How the data were processed

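For each barcode the authors deposited the raw count of UMIs of every gene, obtained with Cell Ranger on GRCm38 (version 3.1.0 in the matrix headers) for barcodes called as cells. From these counts, barcodes were kept if they had 250 to 5000 genes, no more than 27000 UMIs and no more than 12.5% of UMIs from mitochondrial genes, and doublets and cells without Ptprc were left out only in alternatives. Both libraries were normalized with SCTransform (3000 variable genes without the members, mitochondrial share regressed out) and clustered with the Louvain method (11 principal components, resolution 0.8). Lineages were named from markers, and a cluster stayed unnamed where its cells of a library had a median UMI count under a fixed part of that library's median (905 against a limit of 913 UMIs in 4T1m) and no marker of a lineage was among its 10 leading genes. The marker lists were monocytic, granulocytic, B cell, T cell, tumor epithelial, fibroblast, endothelial, dendritic, basophil and mast, natural killer and erythroid.

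UMIs were summed per group and scaled to CPM. Because the chemistry counts 1 tag per molecule at the 3′ end, levels of different genes were compared without a correction for length. Ratios are log2 ratios of CPM with exact binomial 95% intervals, levels have exact Poisson intervals, and a call needs a log2 ratio of 1 and 200 UMIs in the compared groups. With 1 library per condition no p-value was computed. Cells were also thinned to 1000 UMIs. The ratio and its interval were tested on simulated data. All 33 members are named, and of the other lysosomal lists the genes with the highest and lowest ratios. Members and lists were chosen with earlier results of these data known. The data cover the GR-1+ tumor libraries only, and the other experiments of the study were not analysed here. The deposited lists of barcodes and genes gave identifiers only. Gene places are from GENCODE vM21. Software was Python 3.11.15, scipy 1.17.1, scanpy 1.11.5, R 4.3.3, Seurat 5.3.0 and sctransform 0.4.2.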

Additional observations from a re-analysis of the deposited data

How the results depend on the processing

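No paired analysis was possible because each condition has 1 library and no result comes from a test. No member with a pooled ratio past 1 changed sign. Atp6v0d2, whose pooled ratio was smaller, pointed in opposite directions within the libraries. Of the members whose interval left out 0, 3 of 31 changed sign under some setting between lineages, 5 of 22 between libraries in monocytic-like cells and 1 of 11 in granulocytic-like cells (Ctsb, 0.03 as a mean over clusters). For monocytic-like over granulocytic-like cells, the summed log2 ratio of 1.94 was 2.17 without mitochondrial, ribosomal protein and member genes in the total, 0.98 relative to the median of all genes, 1.71 as a mean over cells, 1.75 after thinning, 2.03 with a Ptprc UMI required, 1.99 without doublets, 1.90 at 5% mitochondrial UMIs, 1.98 with log-normalization, 1.97 within 4T1p and 1.86 within 4T1m. Members past a log2 ratio of -1 went from 0 to 4 relative to the median (27.7% of all genes). They went to 1 as a mean over cells, after thinning and at a limit of 0.58 (17.1% of all genes at 0.58). For 4T1m over 4T1p in monocytic-like cells, the summed ratio of -0.25 was -0.30 without mitochondrial, ribosomal protein and member genes, -0.39 relative to the median, -0.15 as a mean over cells, -0.18 after thinning, -0.29 with Ptprc required, -0.29 at 5% mitochondrial UMIs, -0.27 with log-normalization, -0.17 as a mean over clusters and -0.28 without the monocytic-like clusters led by C1qb and Top2a, in which 24.7% and 26.1% of cells had a Ptprc UMI, a setting chosen after seeing the data. As a mean over cells 1 member was lower, and at a limit of 0.58, 1 was higher and 3 lower (23.3% and 6.16% of all genes at 0.58). In granulocytic-like cells the summed ratio of -0.14 was -0.22 relative to the median, -0.21 as a mean over cells, -0.21 after thinning, -0.0443 with Ptprc required, -0.19 without doublets, -0.19 with log-normalization and 0.000751 as a mean over clusters. There 1 member was higher with Ptprc required, 1 lower without doublets and 1 lower with a minimum of 1 UMI. At 0.58, 1 was higher and 3 lower (17.8% and 8.34% of all genes). Shares of all genes under the other settings are not given here. The mean member share of a monocytic-like cell was 2.25% at 1000 UMIs and 2.21% at 500 UMIs. The causes were not tested. The planned exclusion of clusters under the UMI limit gave no value of its own, since the only cluster under it, the unnamed one, was already left out. Depth limits Glb1, Gaa, Gusb and Atp6v0d2, which have few UMIs in granulocytic-like cells.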
